A study of Mus musculus with 6 samples.

Results

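The Cyp2c genes encode a family of cytochrome P450 monooxygenases, and the measurements given here are those of 10 of its mouse members in the livers of alcohol-fed mice. The members were Cyp2c29, Cyp2c37, Cyp2c38, Cyp2c39, Cyp2c40, Cyp2c44, Cyp2c50, Cyp2c54, Cyp2c55 and Cyp2c70, and a probe belonged to the family when the array files gave it one of these names. Of the 41174 probes of the array, 12 carried such a name, for 9 of the 10 genes. Cyp2c37, Cyp2c38 and Cyp2c40 each had 2 probes, which are kept apart as probe 1 and probe 2. No probe was found under the name Cyp2c50, which is not analysed here. Cyp2c44 is now called Cyp2c23, and the name of the array files is kept.

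The liver RNA came from male mice of the 129/Sv strain that were between 6 and 8 weeks of age when feeding began. One arm received a Lieber-DeCarli liquid diet with 4% ethanol. The other arm received the same number of calories as maltose dextran, and both arms had first been accustomed to the control liquid diet. After 1, 2 and 4 months the RNA of 6 mice of each arm was combined into 1 pool, so that 1 alcohol pool and 1 control pool stand for each month. The pools of a month were hybridized together on 2 two-color arrays with the dyes Cy5 and Cy3 exchanged, which gives 6 arrays in all. The same RNA was thus measured on each of the 2 arrays, and their SD is a technical spread. The variation between mice was not measured. The arrays of 1 month lay on a different slide from those of 2 and 4 months, so slide and early against late treatment cannot be told apart.

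Enzymes of this family add oxygen to arachidonic acid. Epoxygenases among them form epoxyeicosatrienoic acids, which relax vessels and limit inflammation and which soluble epoxide hydrolase removes, while the hydroxylases form hydroxyeicosatetraenoic acids. In liver these enzymes also oxidize drugs, retinoids and bile acids. Several of the genes are known targets of the nuclear receptors CAR and PXR, which respond to foreign compounds.

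Ratios above 0 on every array were seen for Cyp2c29, Cyp2c37, Cyp2c38, Cyp2c39 and Cyp2c54. Ratios here are alcohol over control on the log2 scale, where 1 is a 2-fold difference. These 5 genes account for 7 of the 12 probes, and 1.49% of the 37922 probes tested lay above 0 on all 6 arrays. A probe was called raised or lowered at a month when the average of its 2 arrays reached 2-fold and the deposited technical error gave a p below 0.05. At 1 month 0 of the 12 probes were called raised, against 0.137% of all probes tested. At 2 months 3 of 12 were called raised (both Cyp2c38 probes and Cyp2c39), against 0.174%. On the array with alcohol in Cy5 alone 0 of 12 were, against 0.831%. When 2-fold was required on each array 0 of 12 were, against 0.0949%. At 4 months 6 of 12 were called raised, for the same 5 genes that lay above 0 throughout, against 0.367%. No member was called lowered at any month, where 0.087%, 0.137% and 0.295% of all probes were. Because a pool is bulk tissue, fewer cells of a type and less RNA per cell cannot be told apart. All 12 probes were well above background in both channels of all 6 arrays, and none was saturated.

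The median ratio of the 12 probes was 0.54 after 1 month, 0.56 after 2 months and 1.03 after 4 months, while the median of all probes tested was 0.00, 0.01 and -0.01. The value of 2 months was 0.32 when alcohol was in Cy5 and 0.75 when it was in Cy3. The family was not uniform. Its 12 monthly values ran from -0.48 to 0.74 after 1 month, from -0.89 to 1.25 after 2 months and from -0.63 to 2.49 after 4 months.

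**Figure D1:**
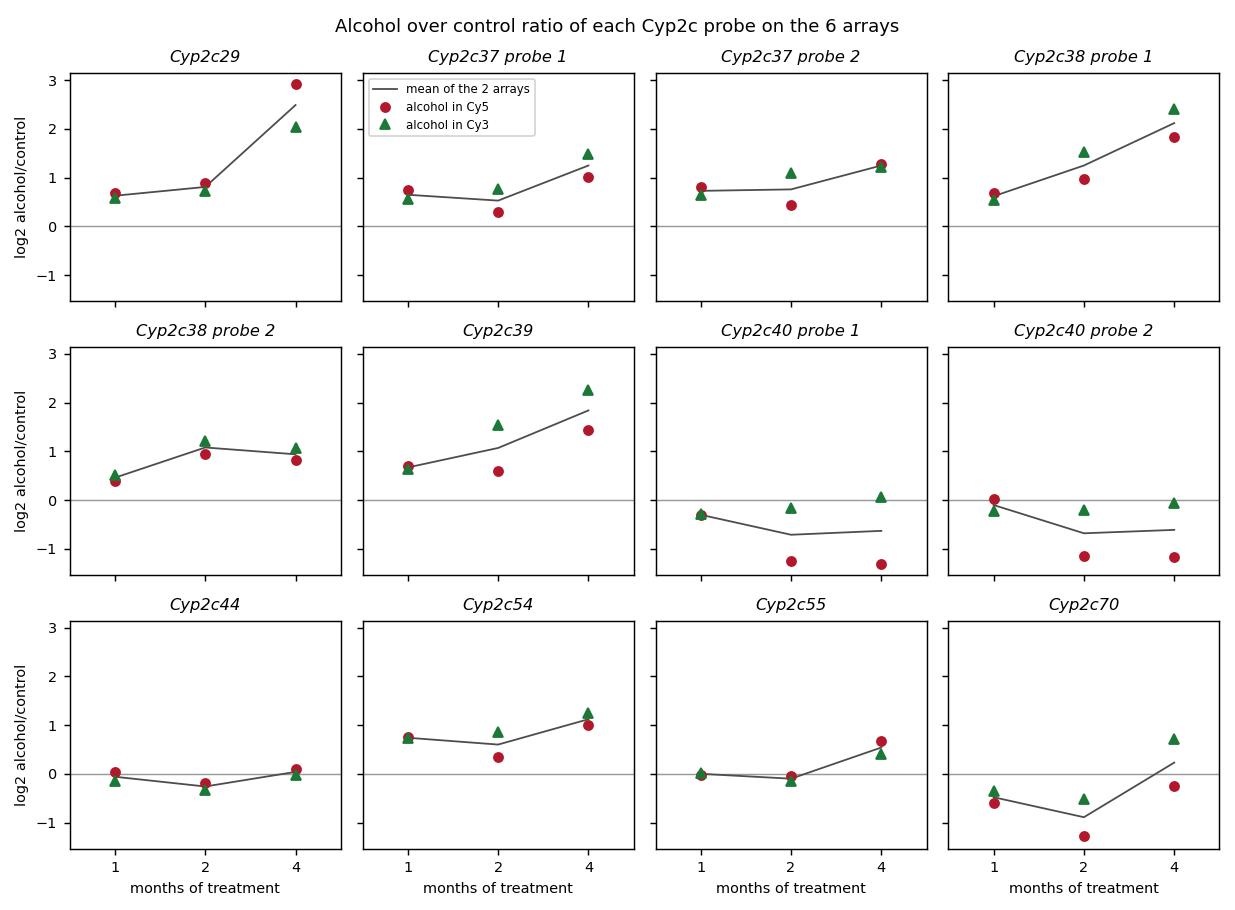
Log2 alcohol over control ratio (vertical axis) of the 12 Cyp2c probes against months of treatment, with circles for the array that carried alcohol in Cy5, triangles for the array that carried it in Cy3 and a line through their mean. Cyp2c29, Cyp2c37, Cyp2c38, Cyp2c39 and Cyp2c54 lie above 0 on all 6 arrays, and Cyp2c29 reaches 2.93 and 2.04 after 4 months.

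The promoters of the 7 measured members with a window are shown, since they include raised and not raised genes, with the first window for Cyp2c39. RefSeq promoter windows of assembly GRCm38.p6, from 250 bases before to 50 bases after the annotated start, were found for 8 of the 10 members, in 9 windows since Cyp2c39 has 2 annotated starts. Capitals mark every match on either strand to CAAAGTCCA, a sequence that the liver factor HNF4-alpha is known to bind, to AGGTCA or AGTTCA, core letters of nuclear receptor sites, or to TATAAA, the letters of the TATA box. A match on the opposite strand appears as its reverse complement.
The raised genes come first, Cyp2c29 at chr19:39286835-39287134 (plus strand), Cyp2c39 at chr19:39347096-39347395 (plus strand), Cyp2c38 at chr19:39463026-39463325 (minus strand) and Cyp2c37 at chr19:39992174-39992473 (plus strand), followed by the not raised Cyp2c55 at chr19:39006769-39007068 (plus strand), Cyp2c40 at chr19:39812765-39813064 (minus strand) and Cyp2c70 at chr19:40187237-40187536 (minus strand).
Cyp2c29: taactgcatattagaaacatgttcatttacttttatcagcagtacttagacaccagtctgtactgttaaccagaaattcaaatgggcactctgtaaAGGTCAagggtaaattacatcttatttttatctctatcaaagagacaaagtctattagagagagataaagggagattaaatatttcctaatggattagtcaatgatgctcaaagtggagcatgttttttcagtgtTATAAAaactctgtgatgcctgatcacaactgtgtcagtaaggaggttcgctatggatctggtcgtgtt
Cyp2c39: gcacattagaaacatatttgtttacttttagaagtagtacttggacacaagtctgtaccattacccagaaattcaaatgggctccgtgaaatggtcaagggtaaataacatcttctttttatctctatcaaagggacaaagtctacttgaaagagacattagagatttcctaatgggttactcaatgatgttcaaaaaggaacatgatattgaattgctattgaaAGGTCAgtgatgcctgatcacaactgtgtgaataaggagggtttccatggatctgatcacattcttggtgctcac
Cyp2c38: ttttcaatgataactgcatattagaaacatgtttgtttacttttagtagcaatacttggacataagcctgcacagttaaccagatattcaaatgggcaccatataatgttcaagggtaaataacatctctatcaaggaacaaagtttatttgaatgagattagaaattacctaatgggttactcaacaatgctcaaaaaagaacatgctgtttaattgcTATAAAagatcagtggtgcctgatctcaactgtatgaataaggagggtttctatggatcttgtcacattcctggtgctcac
Cyp2c37: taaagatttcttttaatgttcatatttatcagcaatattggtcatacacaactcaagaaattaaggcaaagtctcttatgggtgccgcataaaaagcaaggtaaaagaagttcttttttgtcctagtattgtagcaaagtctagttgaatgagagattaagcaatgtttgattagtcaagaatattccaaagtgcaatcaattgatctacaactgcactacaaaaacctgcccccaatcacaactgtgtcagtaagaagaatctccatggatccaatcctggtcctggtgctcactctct
Cyp2c55: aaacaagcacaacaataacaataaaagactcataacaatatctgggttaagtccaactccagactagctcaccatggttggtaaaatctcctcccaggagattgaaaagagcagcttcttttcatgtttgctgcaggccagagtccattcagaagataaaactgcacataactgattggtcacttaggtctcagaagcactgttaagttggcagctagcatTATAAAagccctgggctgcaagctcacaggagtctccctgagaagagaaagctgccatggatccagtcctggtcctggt
Cyp2c40: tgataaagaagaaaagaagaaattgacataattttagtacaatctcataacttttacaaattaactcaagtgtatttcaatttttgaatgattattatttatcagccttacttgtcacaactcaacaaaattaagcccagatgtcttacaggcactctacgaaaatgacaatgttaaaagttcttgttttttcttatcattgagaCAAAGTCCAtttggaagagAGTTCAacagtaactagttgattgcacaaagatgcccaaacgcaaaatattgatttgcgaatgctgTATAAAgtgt
Cyp2c70: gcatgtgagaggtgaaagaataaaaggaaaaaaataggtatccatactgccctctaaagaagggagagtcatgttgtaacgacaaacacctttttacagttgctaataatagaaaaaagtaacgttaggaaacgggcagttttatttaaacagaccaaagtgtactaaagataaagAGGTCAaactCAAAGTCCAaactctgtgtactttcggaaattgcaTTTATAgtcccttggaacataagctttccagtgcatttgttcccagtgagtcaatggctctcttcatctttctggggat

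The letters CAAAGTCCA were in the windows of Cyp2c40, 45 bases before its start, and of Cyp2c70, 64 bases before its start, and in 0 of the other 7 member windows, that of the not raised Cyp2c55 among them. These letters are held by 0.475% of all 32851 RefSeq promoters and by 6 of the 14 Cyp2c windows among them. With 1 mismatch allowed, a count added after the exact matches had been seen, 8 of the 9 member windows held the sequence, all but that of Cyp2c38, against 8.47% of all promoters. AGGTCA was in the windows of Cyp2c29, Cyp2c70 and the first of Cyp2c39, and 16.3% of all promoters hold it. AGTTCA was in 3 of the 9 member windows and in 14% of all promoters, and TATAAA was in 6 of the 9 and in 13.6% of all. In the window of Cyp2c40 TATAAA begins 41 bases after the annotated start. The window of Cyp2c37 held none of the 4 motifs. A match is a string of letters and not a measured binding site. The windows of Cyp2c29, Cyp2c39 and Cyp2c38 are alike, with 76% identical positions between Cyp2c29 and the first window of Cyp2c39, 71.1% between Cyp2c29 and Cyp2c38, and 78.1% between Cyp2c38 and that window of Cyp2c39. The second window of Cyp2c39 matched that of Cyp2c29 at 70.6% and that of Cyp2c38 at 73.6%. The window of Cyp2c37 matched that of Cyp2c50 at 86.6% of positions. Against the windows of Cyp2c29, Cyp2c38 and Cyp2c39 it matched at 50% to 60.5%. Against the 5 windows of Cyp2c29, Cyp2c37, Cyp2c38 and Cyp2c39, that of Cyp2c40 matched at 46.8% to 51.4%, that of Cyp2c70 at 48.4% to 51.2% and that of Cyp2c55 at 51.1% to 56.2%. The windows are set by the annotated starts, and a start annotated at another place in 1 gene lowers these shares. Likeness between the transcripts of neighbouring Cyp2c genes was not checked here. A probe may detect more than 1 of them, and its gene is uncertain to that extent.

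Cyp2c29, a main Cyp2c epoxygenase of mouse liver and a known CAR target, had the largest average ratio of the 12 probes at 4 months, though Cyp2c38 probe 1 and Cyp2c39 exceeded it on the array with alcohol in Cy3. With the array that carried alcohol in Cy5 given first throughout, its log2 ratios were 0.68 and 0.59 after 1 month, 0.90 and 0.73 after 2 months, and 2.93 and 2.04 after 4 months. The arrays of the 3 months did not overlap, and the step from 2 to 4 months was the larger one. The averages were 1.55-fold (log2 0.63 ± 0.06, SD of 2 arrays), 1.76-fold (0.81 ± 0.12) and 5.6-fold (2.49 ± 0.62), and only that of 4 months was called raised. Over the 3 months the mean log2 ratio was 1.31 ± 0.385 (SE, n = 3 months), with a limma adjusted p of 0.62.

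Cyp2c39, an epoxygenase that is also known as a retinoic acid hydroxylase, gave log2 ratios of 0.69 and 0.64 after 1 month, 0.59 and 1.54 after 2 months, and 1.44 and 2.25 after 4 months. All 6 were above 0, but the arrays of 2 months overlapped those of both other months. Its averages were 1.59-fold (0.67 ± 0.04), 2.1-fold (1.07 ± 0.67) and 3.59-fold (1.84 ± 0.57), called raised at 2 and 4 months. The mean over the months was 1.19 ± 0.23 (SE, n = 3 months, limma adjusted p = 0.62).

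Cyp2c38, another epoxygenase, was measured by 2 probes that differed in size at 4 months. Probe 1 gave 0.69 and 0.54 after 1 month, 0.98 and 1.52 after 2 months, and 1.83 and 2.40 after 4 months, with no overlap between the months. Probe 2 gave 0.40 and 0.52, then 0.95 and 1.22, then 0.83 and 1.06, so that its arrays of 2 and 4 months overlapped. The 2 probes were close at 1 month (1.53-fold and 1.38-fold) and at 2 months (2.38-fold and 2.12-fold). At 4 months probe 1 stood at 4.33-fold (2.12 ± 0.40, called raised) and probe 2 at 1.92-fold (0.94 ± 0.16, not called). Mean log2 ratios over the months were 1.33 ± 0.286 for probe 1 (SE, n = 3 months, limma adjusted p = 0.62) and 0.83 ± 0.135 for probe 2 (limma adjusted p = 0.601).

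Cyp2c54, an epoxygenase closely related to Cyp2c50 and Cyp2c37, was raised by less at 4 months than Cyp2c29, Cyp2c39 and Cyp2c38 probe 1. At 1 month its average was higher than theirs, and at 4 months it was above that of Cyp2c38 probe 2 (0.94). The log2 ratios of Cyp2c54 were 0.76 and 0.73 after 1 month, 0.34 and 0.85 after 2 months, and 1.00 and 1.24 after 4 months. The arrays of 1 and 2 months overlapped, and those of 4 months lay above both. The averages were 1.68-fold (0.74 ± 0.03), 1.51-fold (0.60 ± 0.36) and 2.17-fold (1.12 ± 0.17), the last called raised. That call was lost on the array with alcohol in Cy5 alone, which lay just under 2-fold, and with 2-fold required on each array. Its mean over the months was 0.82 ± 0.116 (SE, n = 3 months, limma adjusted p = 0.601).

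Cyp2c44 differs from the others in lying apart from the main gene cluster, and its product is known as an epoxygenase of kidney and liver. Its log2 ratios were 0.03 and -0.14 after 1 month, -0.19 and -0.33 after 2 months, and 0.09 and -0.02 after 4 months. They fell on both sides of 0 at 1 and 4 months and below 0 on both arrays of 2 months, where the average was -0.26 ± 0.10 (1.2-fold lower). No month was called, and the mean of -0.09 ± 0.0811 (SE, n = 3 months) had a limma adjusted p of 0.771.

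Among the members known mainly as hydroxylases, Cyp2c37 was raised with its 2 probes in step. Probe 1 gave 0.74 and 0.57 after 1 month, 0.29 and 0.77 after 2 months, and 1.01 and 1.49 after 4 months. Probe 2 gave 0.81 and 0.65, then 0.44 and 1.09, then 1.28 and 1.22. On both probes the arrays of 2 months spanned those of 1 month, and the arrays of 4 months lay above all others. The average at 4 months was 2.38-fold on each (1.25 ± 0.34 on probe 1 and 1.25 ± 0.04 on probe 2), and both were called raised. Over the months probe 1 averaged 0.81 ± 0.155 (SE, n = 3 months, limma adjusted p = 0.62) and probe 2 averaged 0.91 ± 0.123 (limma adjusted p = 0.601).

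Cyp2c40, which hydroxylates arachidonic acid within its chain, gave ratios that differed between the 2 arrays of the later months. Probe 1 gave -0.30 and -0.29 after 1 month, -1.25 and -0.17 after 2 months, and -1.32 and 0.07 after 4 months. Probe 2 gave 0.02 and -0.22, then -1.15 and -0.21, then -1.16 and -0.06. At 2 and 4 months, both probes were over 2-fold lower with alcohol in Cy5 and near 0 with alcohol in Cy3. The averages of -0.71 ± 0.76 and -0.63 ± 0.98 on probe 1, and of -0.68 ± 0.66 and -0.61 ± 0.78 on probe 2, were smaller than the spread of their 2 arrays for 2 months on probe 1 and for 4 months on both. None was called. The means over the months were -0.54 ± 0.0995 for probe 1 and -0.46 ± 0.13 for probe 2 (SE, n = 3 months, limma adjusted p = 0.62 for each).

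Cyp2c55, a hydroxylase known from the intestine and from livers treated with CAR and PXR activators, stood near 0 at first. Its log2 ratios were -0.02 and 0.02 after 1 month, -0.05 and -0.14 after 2 months, and 0.67 and 0.41 after 4 months. Both arrays of 4 months lay above the 4 arrays of the earlier months. The average at 4 months was 1.46-fold (0.54 ± 0.19), below the 2-fold of a call, and the mean over the months was 0.15 ± 0.14 (SE, n = 3 months, limma adjusted p = 0.794).

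Cyp2c70, which forms the muricholic acids that set mouse bile acids apart, lay below 0 at the earlier months. Its log2 ratios were -0.59 and -0.36 after 1 month, -1.27 and -0.51 after 2 months, and -0.26 and 0.72 after 4 months. The arrays of 4 months fell on opposite sides of 0. The averages were 1.39-fold lower (-0.48 ± 0.17), 1.85-fold lower (-0.89 ± 0.54) and 1.17-fold higher (0.23 ± 0.70), none of them called, and the mean of -0.38 ± 0.218 (SE, n = 3 months) had a limma adjusted p of 0.681.

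The 2 arrays of a month differed most at 2 and 4 months. With 1 array for each dye orientation, the dye and the array cannot be told apart. Dividing the difference of the 2 arrays by their number gives the part of a ratio that changes with the array, and across all probes tested its SD was 0.17 after 1 month, 0.31 after 2 months and 0.35 after 4 months. For Cyp2c40 that part was 0.54 after 2 months and 0.69 after 4 months on probe 1, and 0.47 and 0.55 on probe 2. The array with alcohol in Cy3 gave the higher ratio for 9 of the 12 probes at 2 months and for 8 after 4 months, but for 4 after 1 month. Cyp2c29 was among the exceptions at 2 and 4 months. A 2-fold ratio on both arrays of a month was reached by 0 of the 12 probes at 1 and 2 months and by 5 after 4 months (Cyp2c29, both Cyp2c37 probes, Cyp2c38 probe 1 and Cyp2c39). Among all probes tested 0.0923%, 0.0949% and 0.224% did so at the 3 months.

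**Figure D2:**
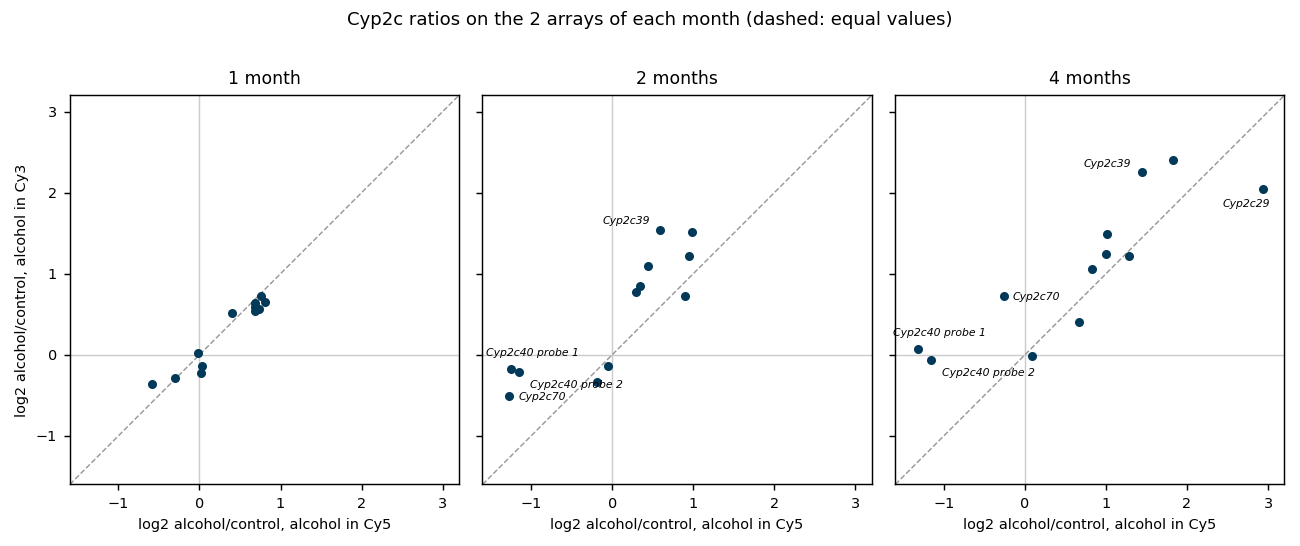
Log2 alcohol over control ratio of the 12 Cyp2c probes on the array with alcohol in Cy5 (horizontal axis) against the array with alcohol in Cy3 (vertical axis), 1 panel a month, with a dashed line of equal values. Points lie near the line at 1 month and spread from it later, as for Cyp2c40 probe 1 at -1.32 and 0.07 after 4 months.

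Levels in the single pools give the 2 sides of each ratio. A level here is the log2 signal of a probe minus the 75th percentile of its channel, so it can be compared between pools for 1 probe but not between probes. Levels of 1 month also differ in slide and scan from those of 2 and 4 months. The median level of all probes was 0.44 lower in the alcohol pools and 0.41 lower in the control pools at 4 months than at 1 month. Scaling by the median of each channel turned these shifts to 0.11 and 0.14 higher.

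For Cyp2c29 the level in the alcohol pool was 5.09 ± 0.29 (SD of 2 arrays) at 1 month, 5.32 ± 0.05 after 2 months and 5.14 ± 0.83 after 4 months. In the control pool it was 4.46 ± 0.35, 4.51 ± 0.16 and 2.65 ± 1.45. The alcohol pools of the 3 months overlapped, and the control pool of 4 months was the lowest of the 6 on both of its arrays, at 1.62 and 3.68. The control level of Cyp2c29 at 4 months minus that at 1 month was -1.81, and -1.55 or -1.25 under the other scalings (Aquantile after loess, or the median of each channel). For its alcohol level the same difference was 0.05, 0.32 or 0.61.

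For Cyp2c38 the levels were higher in both arms at the later months. On probe 1 the alcohol pools stood at 0.68 ± 0.06, 2.24 ± 0.37 and 3.24 ± 0.11 and the control pools at 0.06 ± 0.16, 0.99 ± 0.01 and 1.13 ± 0.29. The alcohol pool lay above the control pool of the same month on both arrays, and the 3 alcohol pools did not overlap. On probe 2 the alcohol pools stood at -1.52 ± 0.19, 0.44 ± 0.28 and 0.39 ± 0.01 and the control pools at -1.98 ± 0.27, -0.64 ± 0.09 and -0.56 ± 0.15. The level of probe 1 at 4 months minus that at 1 month was 2.56 in the alcohol pool and 1.07 in the control pool, and with the other scalings 2.34 or 3.12 and 0.84 or 1.62.

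At the scaling by the 75th percentile, Cyp2c39 was the only one of the 12 probes whose 3 alcohol pools all lay above its 3 control pools on every array, against 0.0712% of all probes tested. Its alcohol pools were at 3.08 ± 0.01, 3.65 ± 0.51 and 3.87 ± 0.33, and its control pools at 2.40 ± 0.03, 2.58 ± 0.16 and 2.03 ± 0.24. The difference between 4 months and 1 month was 0.80 in its alcohol pools and -0.38 in its control pools, but 0.18 in the control pools under scaling by the median of each channel, so the direction in the controls was not settled. Under that scaling the control pool of 2 months also stood above the alcohol pool of 1 month.

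For Cyp2c37 and Cyp2c54 the lowest pool of the 6 was the control pool of 4 months under all 3 scalings. The highest was the alcohol pool of 1 month, except for Cyp2c37 probe 2 under scaling by the median of each channel, where it was the alcohol pool of 4 months. The alcohol level at 4 months minus that at 1 month was then 0.27 on this probe, -0.07 on Cyp2c37 probe 1 and -0.05 for Cyp2c54. Cyp2c37 probe 1 stood at 3.67, 2.64 and 3.05 in the alcohol pools and at 3.02, 2.11 and 1.79 in the control pools, and its probe 2 at 4.35, 3.94 and 4.06 against 3.62, 3.18 and 2.81. Cyp2c54 stood at 2.76, 1.81 and 2.16 against 2.02, 1.22 and 1.04. In the ordered pools of Cyp2c54 only the control pool of 1 month and the alcohol pool of 2 months, which are neighbours, overlapped.

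Pools of the not raised members overlapped as well. For Cyp2c40 probe 1 the levels were 2.58, 2.96 and 2.55 in the alcohol pools and 2.87, 3.67 and 3.18 in the control pools, and 4 of the 5 neighbours in their order overlapped. For its probe 2 all 5 did. Cyp2c44 went from 2.09 to 1.71 and 1.48 with alcohol and from 2.14 to 1.98 and 1.44 without, so that the differences between 4 months and 1 month were -0.61 and -0.70, where the median of all probes was lower too. Under scaling by the median of each channel they were -0.05 and -0.14. Cyp2c55 stood at -0.84, -2.13 and -1.89 in the alcohol pools and at -0.84, -2.03 and -2.43 in the control pools. Cyp2c70 stood at 3.17, 3.27 and 3.67 against 3.64, 4.16 and 3.44, so the alcohol pool had the higher average level at 4 months only.

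**Figure D3:**
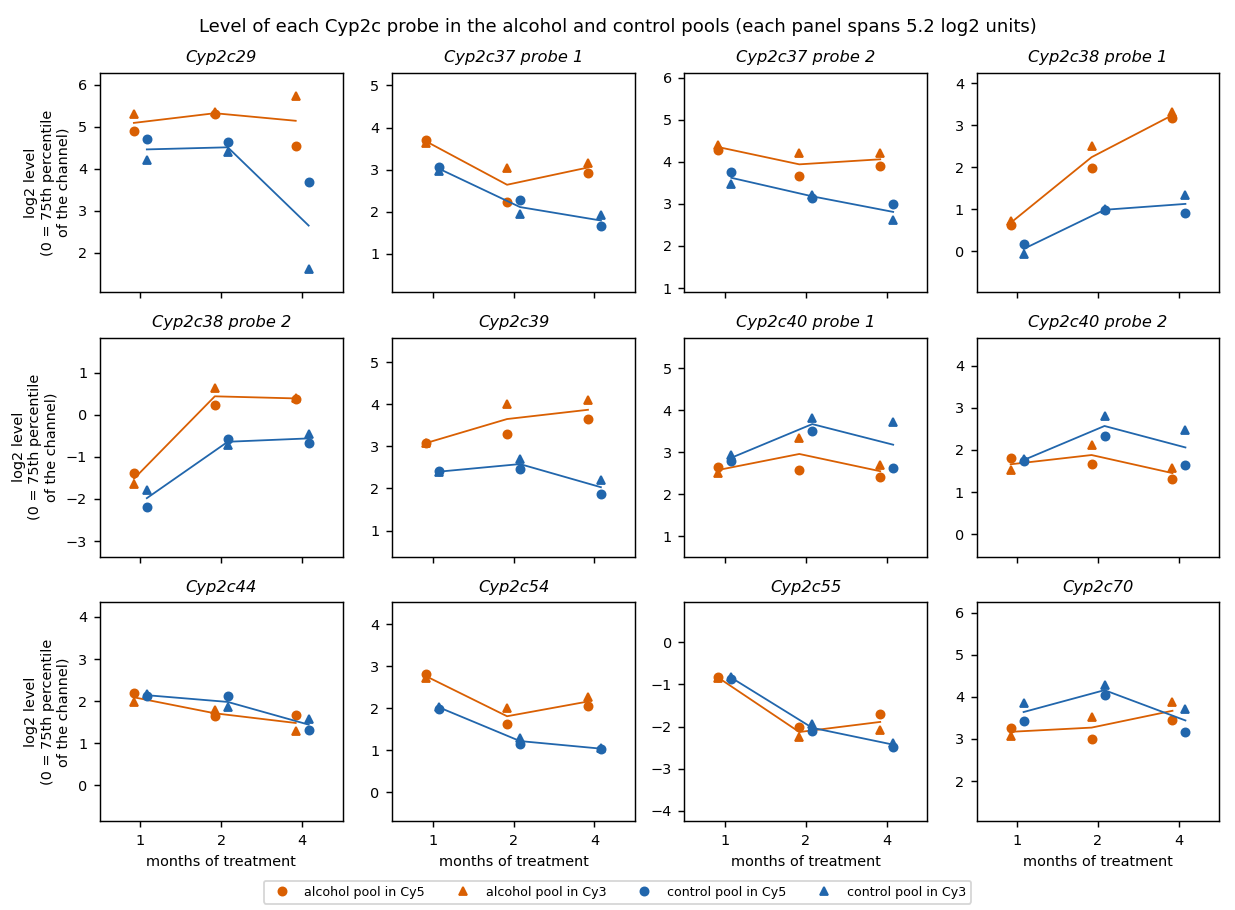
Log2 level of the 12 Cyp2c probes (vertical axis, 0 being the 75th percentile of the channel) against months of treatment, with orange for alcohol pools and blue for control pools, circles for Cy5, triangles for Cy3 and lines through the mean of 2 arrays. At 4 months the control pool of Cyp2c29 lies at an average of 2.65 and its alcohol pool at 5.14.

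The months are the replicates of the design, and across them no member passed the test. limma called 0% of the 37922 probes (0 probes) as changed over the 3 months and 0% (0 probes) as changing with the log2 of treatment time, at an adjusted p of 0.05. The unadjusted p was under 0.05 for 3028 probes in the first test and for 2813 in the second, among them 9 and 3 of the 12 member probes. The methods' t-test, without moderation, also called 0 probes after adjustment, with 2247 at an unadjusted p under 0.05. Adjusted p-values of the members lay between 0.601 and 0.794 for the effect. Single months moved some of the means by over 1.5 times. Without 4 months that of Cyp2c29 was 0.72, of Cyp2c70 -0.68, of Cyp2c44 -0.16 and of Cyp2c55 -0.05, the last with its sign turned. Without 2 months those of Cyp2c70, Cyp2c44 and Cyp2c55 were -0.12, -0.01 and 0.27. The steepest member slopes, in log2 ratio for each doubling of treatment time, were 0.93 ± 0.225 for Cyp2c29 (SE, limma adjusted p = 0.627), 0.75 ± 0.0857 for Cyp2c38 probe 1 and 0.59 ± 0.0954 for Cyp2c39 (both with limma adjusted p = 0.616). On data simulated from the main fit, the slope test recovered 0% of slopes of 1, so it could not decide on slopes of this size. With normexp background correction and loess the slope of Cyp2c38 probe 1 was 0.77 and passed, with a limma adjusted p of 0.0328.

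In their order along chromosome 19 the raised genes lay in 2 places. With Cyp2c39 placed by the first of its 2 annotated starts, Cyp2c29, Cyp2c39 and Cyp2c38 follow each other with a single pseudogene between them, and Cyp2c37 and Cyp2c54 are direct neighbours. Cyp2c40, which was not raised, lies between these places. Cyp2c55 stands at one end of the cluster, next to a pseudogene at its edge, Cyp2c70 at the other and Cyp2c44 beyond it. Of the other Cyp2c genes, a probe for Cyp2c66 was well above background throughout, with averages of 0.03 ± 0.27, 0.02 ± 0.61 and 0.05 ± 1.05 at the 3 months. Its arrays of 4 months gave 0.79 and -0.69, on opposite sides of 0. The probe for Cyp2c65 was not well above background on any array.

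**Figure D4:**
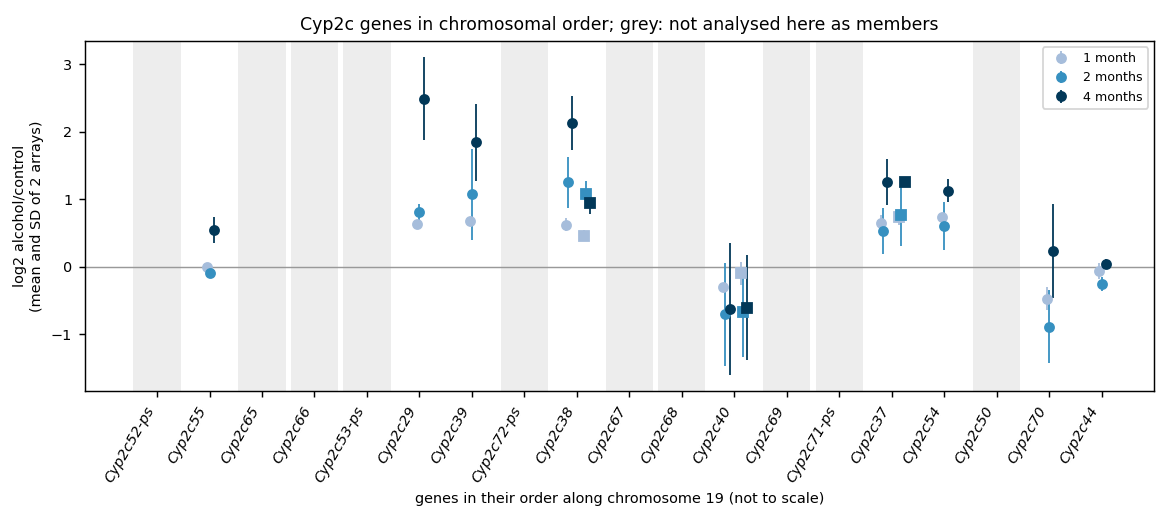
Log2 alcohol over control ratio (vertical axis, mean and SD of 2 arrays) of the members in their order along chromosome 19 (horizontal axis, not to scale), in 3 shades for 1, 2 and 4 months, with squares for the probe 2 of a gene and grey columns for genes that are not members with a probe. The raised genes stand on both sides of Cyp2c40, whose probes average -0.63 and -0.61 after 4 months. Cyp2c39 is placed by the first of its 2 annotated starts.

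None of the partners of these enzymes was called. Of 7 genes for epoxide removal, electron supply and fatty acid transport, all measured, 0 were called at any month, and their median ratios were 0.05, -0.12 and 0.04. Por, the reductase that feeds electrons to every microsomal P450, was highest by mean at 0.23 ± 0.0851 (SE, n = 3 months, limma adjusted p = 0.62) and lay above 0 on 5 of 6 arrays. Ephx1, the microsomal epoxide hydrolase, had a mean of 0.20. Fabp1, the liver fatty acid carrier, was lowest at -0.47, with an SD between the 2 arrays of over 1 at each month. The Cyp2j genes encode the other epoxygenases of the mouse, and 0 of their 5 measured members were called, with means from -0.24 (Cyp2j6) to 0.03 (Cyp2j9).

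Omega-hydroxylases turn arachidonic acid to vasoactive products at the far end of its chain, and 3 of 9 measured were called. Cyp4a14 had log2 ratios of 2.44, 1.81 and 1.16 after 1, 2 and 4 months and Cyp4a31 of 2.47, 1.19 and 1.18, all called raised. Cyp4a10 had 1.11, 0.67 and 0.68 and was called at 1 month. These 3 genes, known targets of PPAR-alpha, were above 0 on all 6 arrays and highest at 1 month, whereas the 7 raised Cyp2c probes were highest at 4 months except for Cyp2c38 probe 2. The difference in timing was not tested. The other 6 of the list were not called, and Cyp4f14 was lowest with a mean of -0.17.

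Of 18 genes that release arachidonic acid or lead it to prostaglandins and leukotrienes, Ltc4s, the leukotriene C4 synthase, was called raised, at 4 months (1.03). At 1 and 2 months neither array showed its control pool well above background. The list had medians of -0.01, -0.00 and 0.03. Pla2g12a, a phospholipase, had a mean of 0.25 and Alox12, a lipoxygenase, of -0.18.

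Among 17 transcription factors known to act on Cyp2c genes the medians were 0.08, 0.10 and 0.04. Foxa2 was the only one called, lowered at 4 months, with log2 ratios of 0.21 ± 0.04, -0.47 ± 0.22 and -1.01 ± 0.21. Nr1i2, which encodes PXR, stood at -0.10, 0.29 and 0.29. Cebpb had the highest mean over the months at 0.28, Foxa2 the lowest at -0.42, and Nfe2l2 stood next to it at -0.35. These are RNA levels of the factors and say nothing of their activity.

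Known CAR and PXR targets outside the family were measured for all 23 genes listed. Called raised were 5 of them at 1 month, 9 after 2 months and 10 after 4 months, and 0 were called lowered. Of all probes tested 0.137%, 0.174% and 0.367% were called raised. The list was chosen with earlier results of these data known, so its counts are not an independent result. The medians of the 23 genes were 0.70, 0.64 and 0.81. Cyp2b10, the usual marker gene of CAR, had log2 ratios of 3.27 ± 0.53, 2.77 ± 0.09 and 4.03 ± 0.33, the highest mean of the list at 3.36 ± 0.242 (SE, n = 3 months, limma adjusted p = 0.221). Cyp2b13 had a mean of 2.88 and Cyp2b9 of 1.90, and Cyp3a25 was lowest at -0.17. Cyp3a11, a PXR target, went from 0.94 to 1.29 and 2.40, and Cyp2a5 from 0.83 to 1.13 and 2.22. Other genes called at 2 or 4 months were Cyp3a16, Cyp3a41a, Cyp3a44, Cyp2a4 and Gadd45b, and Gsta2 and Alas1 were called at 1 month.

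**Figure D5:**
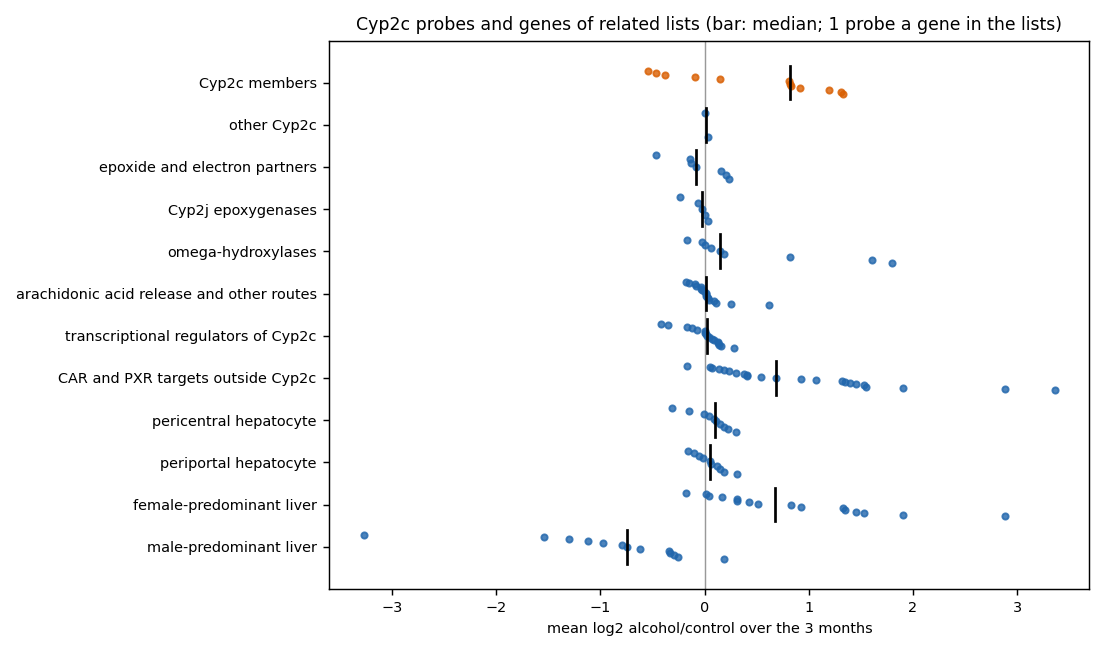
Mean log2 alcohol over control ratio over the 3 months (horizontal axis) of the 12 Cyp2c probes, in orange, and of the genes of 11 related lists, in blue, with a bar at each median. The medians are 0.82 for the Cyp2c probes, 0.68 for the CAR and PXR targets, 0.02 for the transcriptional regulators and -0.75 for the male-predominant genes.

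Genes of the pericentral and periportal zones of the lobule, which differ in P450 content, had medians near 0. Of 10 pericentral genes only Axin2 was called, raised at 2 months, when neither array showed its control pool well above background. At 1 and 4 months that held for both of its pools. Gulo was lowest there with a mean of -0.31 and Rhbg highest with 0.30. Of 10 periportal genes 0 were called, with means from -0.16 for Cyp2f2 to 0.31 for Sds.

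Genes with a known sex difference in liver were called in all 3 months. Of 16 female-predominant genes measured, 4, 5 and 9 were called raised at 1, 2 and 4 months, and of 13 male-predominant genes 4, 2 and 6 were called lowered. Of all probes tested 0.137%, 0.174% and 0.367% were called raised, and 0.087%, 0.137% and 0.295% lowered. These lists were also chosen with earlier results of these data known. Among the female-predominant genes, Sult3a1 had log2 ratios of -0.47, -0.14 and 2.14, and Abcd2 of 1.40, 0.89 and 1.70, while Acot3 was called at 1 month (1.14). Among the male-predominant genes, Hsd3b5 had -2.93, -2.04 and -4.83, Cyp7b1 had -1.55, -1.42 and -1.64, and Mup3 had -0.89, -0.77 and -2.23. Slco1a1, Selenbp2, Elovl3 and Nudt7 were each called lowered at 1 or more months. Of the female-predominant list, 6 genes are P450 genes that the CAR and PXR list also holds.

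By the distance of their 6 array ratios from those of Cyp2c29, taken over the 27900 probes whose 2 channels were well above background on every array, the 5 nearest genes outside the family included Cyp2a5 (distance 1.02), Cyp3a41a (1.05), Cyp3a44 (1.14) and 2210010C04Rik (1.48). Since the genes were picked by closeness of these same ratios, their likeness to Cyp2c29 is no separate result. Averages of the 3 Cyp genes were higher at each later month and stood at 2.22, 2.08 and 2.28 after 4 months. The average of 2210010C04Rik was near 0 until 4 months, where it stood at 2.04. Within the family Cyp2c38 probe 1 was nearest to Cyp2c29 (distance 1.40), followed by Cyp2c39 (1.73), and Cyp2c40 probe 1 was farthest (5.39).

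The pools bore the markers of liver, and some markers of other cells were called. Of 8 hepatocyte markers 7 were measured, all well above background in both channels of all arrays, with 0 called. Their summed level, in multiples of the 75th percentile of the channel, was 112 to 123 in the alcohol pool and 72.5 to 131 in the control pool at 4 months, below the 205 to 225 and 181 to 268 of 1 month and the 209 to 219 and 180 to 218 of 2 months. Levels of the members at 4 months lay on both sides of those at 1 month. In both pools Cyp2c55, Cyp2c44, Cyp2c37 and Cyp2c54 were lower (differences of -0.29 to -1.59) and Cyp2c38 was higher (1.07 to 2.56), while Cyp2c29, Cyp2c39, Cyp2c40 and Cyp2c70 differed in direction between their pools. Scaling by the median of each channel put both pools of Cyp2c39, Cyp2c40 and Cyp2c70 and the alcohol pool on Cyp2c37 probe 2 higher, and Aquantile after loess put both pools of Cyp2c40 lower. Scaled by the median of each channel, the summed hepatocyte level at 4 months was 501 to 619 and 367 to 588, against 661 to 729 and 584 to 869 at 1 month. Of 11 pancreas acinar markers 10 were measured, and 3 of them, Cpb1, Cela2a and Pnliprp1, were called raised at 4 months beside the Cyp2c calls of that month. The summed acinar level was then 22.2 to 22.6 in the alcohol pool and 15.9 to 17.4 in the control pool, against 15 to 15.7 and 15.9 to 16.8 after 1 month. At 1 month the globin genes Hbb-b1 and Hba-a1 were called raised, and the summed blood level was 76.9 to 99.8 in the alcohol pool and 21.9 to 36.5 in the control pool. Adgre1 was the only 1 of 6 Kupffer cell markers called, at 1 month. Of the stellate, endothelial, cholangiocyte, intestine and kidney markers 0 were called, and Cdx2 of the intestine was not well above background on any array. The part of these other cells in the Cyp2c ratios was not tested.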

How the data were processed

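Each month's alcohol and control pools were compared on 2 arrays with exchanged dyes. The authors extracted the scans with Feature Extraction 9.1.1.1 and deposited, for each spot, background-subtracted and dye-normalized signal intensity values and a log10 ratio of Cy5 over Cy3. The deposited error of that ratio, used here as a score of technical spread, comes from the error model of the software. The authors also deposited a table of log10 ratios, which runs as alcohol over control and matched the scanner ratios within 0.02 (log2) for 100% of 40929 probes with a single spot. For the array probes, neither a genome build nor the sequences are given in the sources used here.

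Control spots were left out, ratios were turned to alcohol over control and put on the log2 scale, and spots of a probe and then the arrays of a month were averaged. The effect and the slope were fitted with limma 3.58.1 (R 4.3.3) to 3 monthly ratios, with Benjamini-Hochberg adjustment. The fits covered 37922 probes above background in at least 1 channel of 1 array. Both were tried on simulated data with 200 changed probes. The effect fit recovered 77.4% of changes of 1 (log2). The slope fit recovered 0% of slopes of 1 for each doubling of time and 93.7% of slopes of 2. Labels give no replicate beyond the month, so p-values measure the spread between months. The number of arrays limits the precision. Other steps used Python 3.11.15. Of 25510 probes with a RefSeq accession 22951 were matched to a current symbol. A list gene is represented by its probe of highest mean signal. Named from each gene list were up to 4 of its most raised and most lowered genes by mean ratio and any called, and from the cell markers those called. A called gene is not reported here. The members and the lists were chosen with earlier results of these data known. Alternatives are given with their effect in the closing section.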

Additional observations from a re-analysis of the deposited data

Results flagged for a closer look

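The average log2 ratio of Cyp2c55 was 0.64 higher at 4 months than at 2 months. Both arrays of 2 months lay below 0, at -0.05 and -0.14, and both arrays of 4 months lay above it, at 0.67 and 0.41. The difference between these 2 months was not tested by itself. The slope on the log2 of treatment time over the 3 months was 0.27 ± 0.131 (SE, limma adjusted p = 0.764).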

How the results depend on the processing

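Of 60 alternative values for the member probes called at each month, 52 stayed within 1.5 times. At a threshold of 1.5-fold, 6 member probes were raised at 1 month and 6 at 2 months, against 0.374% and 0.659% of all probes. Lowered were 3 at 2 months and 2 at 4 months, against 0.891% and 1.27%. At least 2-fold on each array left 0 raised at 2 months, against 0.0949% of all probes. When only arrays with alcohol in Cy5 were used there were 0 raised and 3 lowered at 2 months, and 2 lowered at 4 months. Of all probes 0.831%, 0.493% and 0.72% were so called. With normexp and loess, limma called 9 probes for the effect and 50 for the slope, 1 of the 50 a member, and with only probes above background in both channels of all arrays it called 6 for the effect. Leaving out 1 month in turn called 0 members and 0 probes in all, and the mean of Cyp2c29 then ran from 0.72 to 1.65, of Cyp2c70 from -0.68 to -0.12, of Cyp2c44 from -0.16 to -0.01 and of Cyp2c55 from -0.05 to 0.27. The family median of 1 month was 0.62 with 1 probe a gene, 0.50 with normexp and 0.53 on the array with alcohol in Cy3, and that of 2 months 0.32 with alcohol in Cy5 alone and 0.75 with it in Cy3. Member probes above 0 on all arrays numbered 7 under each of the 4 alternatives added after seeing the data, against 1.49% to 1.76% of all probes. Changes of single-channel levels from 1 to 4 months moved with the scaling in 38 of 48 values, and the cause was not tested. Slide as a random block could not be fitted. Each ratio sets an alcohol pool against the control pool of its month, so the tests were paired by month. The labels give no replicate numbers for any further pairing. Signal over background did not limit the members, but 1 pair of pools a month, the spread between arrays at 2 and 4 months and probes that may detect several Cyp2c genes did.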
